A study of Mus musculus with 6 samples.

Results

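The genes described here are 34 known p53 target genes of the mouse, taken by symbol from a list, out of 24421 genes in the count table. All 34 were listed in the table and 29 had enough reads to test. By role, 11 belong to arrest and growth control, 15 to apoptosis, 5 to DNA repair and 3 to metabolism and autophagy. The transcription factor p53 is stabilised by DNA damage and other stresses and switches on genes that stop the cell cycle, repair DNA, adjust metabolism or start apoptosis. It binds DNA as a tetramer at a pair of decamers, and its level is held down by MDM2, a ubiquitin ligase whose gene is itself a p53 target. In fibroblasts the best known output is Cdkn1a, which encodes p21, an inhibitor of cyclin-dependent kinases.

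The cells were 3T3-L1, an embryonic fibroblast line of the mouse that serves as a preadipocyte model. They were taken undifferentiated, in log-phase growth and at no more than 80% confluence, and their total RNA was sequenced after ribosomal RNA was removed. Ube3d knockout cells (KO, 3 libraries) were compared with wild-type cells of the same line (WT, 3 libraries). The titles call the libraries biological replicates, but the sources used here do not give how separate the cultures were or whether the KO is 1 clone, so p-values measure the spread between these libraries, which may be technical. No p53-activating agent is named in the labels for either genotype.

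Total gene counts were 25267434 to 28042970 per KO library and 23767181 to 29389480 per WT library. Ube3d itself, listed under its older symbol Ube2cbp, had 2.20, 1.58 and 1.89 CPM in the KO libraries, against 6.21, 7.71 and 6.46 CPM in the WT libraries, where CPM is the read count scaled to the TMM-adjusted library size. It was 3.62-fold lower in KO (log2 −1.86, SE 0.15, edgeR adjusted p = 6.6e-18) and not absent. The summed level of 10 fibroblast markers was 13738 to 14096 CPM in KO and 15677 to 16126 CPM in WT, with 7 of them lower and 2 higher in KO, while Epcam and Krt18 of the epithelial markers and Adgre1 and Cd3e of the leukocyte markers had no count in any library. Summed levels of 5 leukocyte markers were 3.46 to 4.70 CPM in KO and 2.58 to 3.64 CPM in WT, those of 4 endothelial markers were 1.30 to 2.27 CPM in KO and 0.600 to 1.05 CPM in WT, and those of the epithelial and adipocyte markers stayed at or under 0.623 CPM in every library. Of the 2 leukocyte markers with enough reads to test, 1 rose (log2 0.71) and 1 fell (log2 −1.55). The 1 endothelial marker tested rose (log2 2.13). The part of these marker shifts in the p53 target values was not tested. KO and WT differed in 61.4% of the 12947 tested genes at an edgeR adjusted p under 0.05, with 30.3% higher and 31.2% lower in KO, so a call by itself sets no gene apart here.

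Among the 29 tested p53 targets, 11 rose in KO, 6 fell and 12 were not called (edgeR quasi-likelihood test, Benjamini-Hochberg adjustment over all tested genes). The 17 called members are 58.6% of those tested, close to the background of 61.4%. The 11 that rose are 37.9%, against the 30.3% of all tested genes, and the 6 that fell are 20.7%, against 31.2%. The members were chosen with earlier results of these data known, so these shares are no independent result. The median log2 fold change of the tested members was 0.08, KO over WT, beside 0.004 for all tested genes, and the median absolute change was 0.22 for both. At a change of at least 0.5 on the log2 scale, 4 members rose, namely Cdkn1a, Zmat3, Trp53inp1 and Eda2r, and 1 fell, namely Dram1. Over all tested genes 11.2% rose and 7.71% fell by that much. Which members reach 0.5 depends on the setting. Without KO replicate 2, Eda2r had a log2 change of 0.498 and Fas had −0.57. Relative to the chromosome median, Xpc had 0.53 and Fas had −0.54. These are bulk libraries, in which a change in the share of cells that hold an RNA and a change in its amount per cell cannot be told apart.

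**Figure D1:**
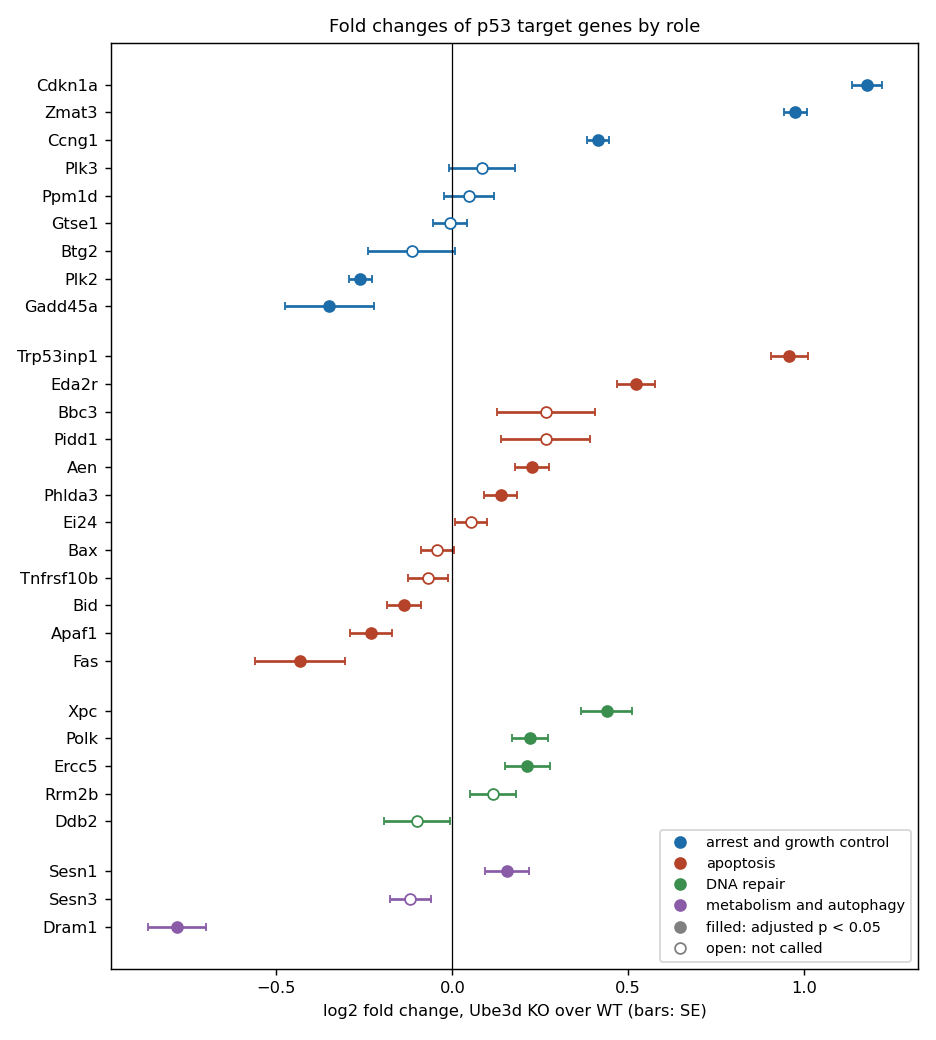
Log2 fold change of each of the 29 tested p53 target genes, KO over WT, with its SE as a bar, grouped by role. Filled points passed an adjusted p of 0.05. Cdkn1a, Zmat3 and Trp53inp1 lie near 1, Eda2r at 0.52 and Dram1 at −0.78, and the other 24 lie within 0.5 of 0.

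The arrest and growth control genes had 3 of 9 tested members higher (33.3%) and 2 lower (22.2%), beside 30.3% and 31.2% of all tested genes. Their median log2 change was 0.05. Cdkn1a had 88.4, 92.1 and 91.0 CPM in the KO libraries, against 41.5, 38.3 and 40.4 CPM in the WT libraries. Every KO library was more than 40 CPM above every WT library. The rise was 2.26-fold (log2 1.18, SE 0.04, edgeR adjusted p = 2.1e-36), and 424 of the 12947 tested genes rose by more. On its chromosome, 17, the median log2 change of tested genes was −0.03.

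Zmat3, which encodes a zinc-finger RNA-binding protein that restrains growth, had 212, 214 and 213 CPM in the KO libraries, against 113, 109 and 102 CPM in the WT libraries. The KO libraries were nearly equal and all far above WT. It rose 1.97-fold (log2 0.97, SE 0.03, edgeR adjusted p = 6.9e-39). Zmat3 lies on chromosome 3, whose tested genes had a median log2 change of 0.30, and relative to that median its change was 0.67. Its exons overlap those of 4930429B21Rik on the other strand, and no source used here gives the strand setting of the counting, so reads of the overlap cannot be told apart. Reads assigned to that gene came to 4.77 ± 0.73 CPM in KO and 2.73 ± 0.13 CPM in WT (SD, n = 3 each). The part of the overlap in the Zmat3 change was not tested.

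Ccng1, cyclin G1, an early p53 target with roles in feedback on p53, ranged from 327 to 343 CPM in KO and from 245 to 263 CPM in WT, a 1.33-fold rise (SE 0.03 on the log2 scale, edgeR adjusted p = 1.4e-19). Plk2, a polo-like kinase of the stress response, moved the other way, at 115 to 120 CPM in KO and 135 to 147 CPM in WT (log2 −0.26, SE 0.03, edgeR adjusted p = 4.4e-10). The groups of both genes did not overlap. Gadd45a, which encodes a growth arrest and DNA damage protein, also fell (log2 −0.35, SE 0.13, edgeR adjusted p = 0.013), but its groups overlapped, with up to 5.07 CPM in KO and as little as 5.02 CPM in WT. The Gadd45a call was lost without KO replicate 3 (adjusted p = 0.061) and without WT replicate 3 (adjusted p = 0.10), and its exons overlap those of E230016M11Rik on the other strand.

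The other 4 tested members of this role did not pass the test. Plk3, another polo-like kinase, had a log2 change of 0.08 (SE 0.09) and overlaps Tctex1d4 on the other strand, and Ppm1d, the phosphatase WIP1 that turns the p53 response off, had 0.05 (SE 0.07). Gtse1, a G2 and S phase protein that restrains p53, had −0.01 (SE 0.05), and the antiproliferative gene Btg2 had −0.12 (SE 0.12). Sfn, the 14-3-3 sigma gene, had 7, 19 and 14 counts in KO, against 7, 10 and 1 counts in WT. Rprm, reprimo, had 0, 3 and 1 counts in KO, against 0, 1 and 0 counts in WT. Both were too low to test over all 6 libraries, but Sfn passed the count filter with KO replicate 1, WT replicate 1, WT replicate 2 or WT replicate 3 left out and was called higher in KO in the first 3 of these.

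Promoter sequence is given for the members whose RefSeq window holds a near-complete p53 element, to show the letters near the start of genes that rose and of genes that were not called. Windows run from 250 bases before to 50 after a RefSeq start on GRCm38.p6, and 26 of the 34 members have at least 1 (33 windows). The other 8 are Perp, Ddb2, Trp53inp1, Pmaip1, Rrm2b, Tnfrsf10b, Xpc and Zmat3. The search was for the p53 decamer consensus, which is its own reverse complement and so covers both strands. A full decamer stood in 11 of the 33 windows and in 8.36% of all 32851 windows. The element was sought as a pair with at most 1 base between the decamers and at most 1 mismatch over both. Such a pair was found in windows of 5 members, Cdkn1a, Ccng1, Polk, Bax and Gtse1, while 0.177% of all 32851 windows hold one. The genes were listed as p53 targets, so a high share of such elements is no independent result. Capitals mark the decamers, each stretch is written 5′ to 3′ on the strand of its gene, and Polk is the gene of DNA polymerase kappa.
Cdkn1a: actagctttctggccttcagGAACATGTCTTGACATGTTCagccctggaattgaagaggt
Ccng1: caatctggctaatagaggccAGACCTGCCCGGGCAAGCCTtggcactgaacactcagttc
Polk: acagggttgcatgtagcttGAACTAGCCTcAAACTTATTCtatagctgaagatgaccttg
Bax: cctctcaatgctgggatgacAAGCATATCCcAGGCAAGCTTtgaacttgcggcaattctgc
Gtse1: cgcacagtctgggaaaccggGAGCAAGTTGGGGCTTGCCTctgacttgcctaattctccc

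The Cdkn1a stretch is chr17:29090908-29090967 (plus strand), and its pair begins 51 bases before the more distal of the gene's RefSeq starts and 2841 bases before the other. The Ccng1 stretch is chr11:40755442-40755501 (minus strand), with the pair beginning 195 bases before the start. The Polk stretch, chr13:96519378-96519437 (minus strand), belongs to a RefSeq start inside the gene, since the count table has Polk reaching to base 96542485. The Bax stretch is chr7:45467070-45467130 (minus strand), and the Gtse1 stretch, chr15:85859925-85859984 (plus strand), spans a start. Log2 fold changes of these 5 genes were 1.18 for Cdkn1a, 0.41 for Ccng1, 0.22 for Polk, −0.04 for Bax and −0.01 for Gtse1, so that genes with such a pair near a start included 3 that rose and 2 that were not called. Eda2r, which rose, has no pair with fewer than 4 mismatches in its window. A match describes letters in these windows and not binding, which was not measured.

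The apoptosis genes also went both ways, with 4 of 12 tested members higher (33.3%) and 3 lower (25%), beside 30.3% and 31.2% of all tested genes. Their median log2 change was 0.10. Trp53inp1, which encodes a stress protein that promotes p53-dependent cell death and autophagy, had 48.6, 48.9 and 50.2 CPM in the KO libraries, against 23.99, 26.0 and 26.0 CPM in the WT libraries. The KO libraries were all well above the WT ones. It rose 1.94-fold (log2 0.96, SE 0.05, edgeR adjusted p = 2.8e-26), on chromosome 4, where the median log2 change was 0.02.

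Eda2r, a receptor of the TNF receptor family that binds ectodysplasin A2, had 39.4, 39.98 and 37.4 CPM in the KO libraries, against 27.0, 27.6 and 26.7 CPM in the WT libraries. The groups did not overlap. Its rise was 1.44-fold (log2 0.52, SE 0.05, edgeR adjusted p = 2.4e-13). Aen, an apoptosis-enhancing nuclease, rose less (log2 0.23, SE 0.05, edgeR adjusted p = 4.8e-05), and Phlda3, a repressor of AKT signalling, rose by 0.14 (SE 0.05, edgeR adjusted p = 0.0095). In Phlda3 WT replicate 1 lay within the KO range, and the call was lost without WT replicate 3 (log2 0.07, adjusted p = 0.18).

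Among the falling apoptosis genes, Fas, the death receptor of the FAS ligand, had 3.63 to 5.43 CPM in KO and 5.95 to 6.69 CPM in WT (log2 −0.43, SE 0.13, edgeR adjusted p = 0.0025). The call of Fas rested on KO replicate 3, the lowest library, and was lost without it (log2 −0.28, adjusted p = 0.068). Apaf1, the scaffold of the apoptosome, had 23.7 to 25.8 CPM in KO and 28.6 to 28.8 CPM in WT (log2 −0.23, SE 0.06, edgeR adjusted p = 5.1e-04). Bid, a BH3-only gene that links death receptors to mitochondria, fell by 0.14 on the log2 scale (SE 0.05, edgeR adjusted p = 0.011), and this call was lost without KO replicate 2 (log2 −0.11, adjusted p = 0.081). Relative to the median of its chromosome, 6, the change of Bid was −0.04.

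The other 5 tested apoptosis genes were not called. Bax, the pore-forming effector, averaged 49.8 ± 3.7 CPM in KO and 51.3 ± 1.2 CPM in WT (SD, n = 3 each), with a log2 change of −0.04 (SE 0.05). Bbc3, which encodes the BH3-only protein PUMA, had a log2 change of 0.27 (SE 0.14, edgeR adjusted p = 0.091), although all its KO libraries, at 4.20 to 4.95 CPM, were above the WT libraries, at 3.30 to 4.18 CPM. Pidd1, a death-domain protein of the PIDDosome, also had 0.27 (SE 0.13, edgeR adjusted p = 0.062), with overlapping groups. The Pidd1 change was 0.13 without KO replicate 3 and 0.16 without WT replicate 3, and it passed the test at 0.34 without KO replicate 1 and at 0.36 without WT replicate 2. Ei24, a p53-induced membrane protein of the endoplasmic reticulum, and the TRAIL receptor gene Tnfrsf10b, had log2 changes of 0.05 and −0.07.

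Some p53 targets of the apoptosis role had few or no reads assigned to them. Whether the gene annotation or the handling of reads played a part was not tested. Pmaip1, which encodes NOXA, and Perp, a membrane protein of desmosomes, had 0 counts in all 6 libraries. A floor of 3 counts per library allows up to 0.118 CPM in KO and up to 0.128 CPM in WT, for counting error only. Casp1, the inflammatory caspase, had 0, 3 and 0 counts in KO, against 2, 0 and 0 counts in WT.

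Of the 5 DNA repair genes, 3 rose (60%, beside 30.3% of all tested genes) and 0 fell (beside 31.2%). The other 2, Rrm2b and Ddb2, were not called. The roles were chosen with earlier results of these data known, so this share of 5 genes is no independent result. The median log2 change was 0.21. Xpc, the damage sensor of nucleotide excision repair, had 19.9, 19.1 and 22.3 CPM in the KO libraries, against 15.9, 14.3 and 15.1 CPM in the WT libraries. No WT library reached the lowest KO library. It rose 1.36-fold (log2 0.44, SE 0.07, edgeR adjusted p = 2.7e-07), while the tested genes of its chromosome, 6, had a median of −0.10.

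Polk, which encodes a translesion polymerase, rose by 0.22 on the log2 scale (SE 0.05, edgeR adjusted p = 1.7e-04), with 37.5 to 39.5 CPM in KO and 33.1 to 33.4 CPM in WT. Ercc5, the excision repair endonuclease XPG, rose by 0.21 (SE 0.06, edgeR adjusted p = 0.0028), a call lost without KO replicate 3 (log2 0.16, adjusted p = 0.054). Ercc5 starts 2.97 kb downstream of Bivm on the same strand, and Bivm itself was slightly lower in KO (log2 −0.12, SE 0.06). Rrm2b, the p53-inducible subunit of ribonucleotide reductase, was not called at a log2 change of 0.11 (SE 0.07, edgeR adjusted p = 0.12), although its groups did not overlap. Ddb2, the ultraviolet damage-binding subunit, was not called at −0.10 (SE 0.09). Ddb2 lies on chromosome 2, where the median was −0.24, and its change relative to that median was 0.14. Its exons overlap those of Acp2, at 35.1 ± 1.22 CPM in KO and 39.95 ± 0.86 CPM in WT (SD, n = 3 each), on the other strand.

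The metabolism and autophagy genes held the largest fall among the tested members. Dram1, which encodes a lysosomal membrane protein that promotes autophagy, had 9.86, 9.50 and 9.64 CPM in the KO libraries, against 18.3, 15.5 and 16.3 CPM in the WT libraries. The KO libraries were close together and all below WT. It fell 1.72-fold (log2 −0.78, SE 0.08, edgeR adjusted p = 4.0e-13), on chromosome 10, where the median was −0.06, and 575 of the 12947 tested genes fell by more. Sesn1, a sestrin that restrains mTORC1, rose by 0.15 (SE 0.06, edgeR adjusted p = 0.028), with 22.8 to 24.7 CPM in KO and 21.1 to 21.6 CPM in WT. The Sesn1 call was lost in 6 of 13 alternatives, among them DESeq2 (adjusted p = 0.069), and leaving out KO replicate 1, KO replicate 3, WT replicate 1 or WT replicate 3 gave adjusted p of 0.069, 0.13, 0.072 and 0.051. Its relative Sesn3 was not called (log2 −0.12, SE 0.06, edgeR adjusted p = 0.067).

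**Figure D2:**
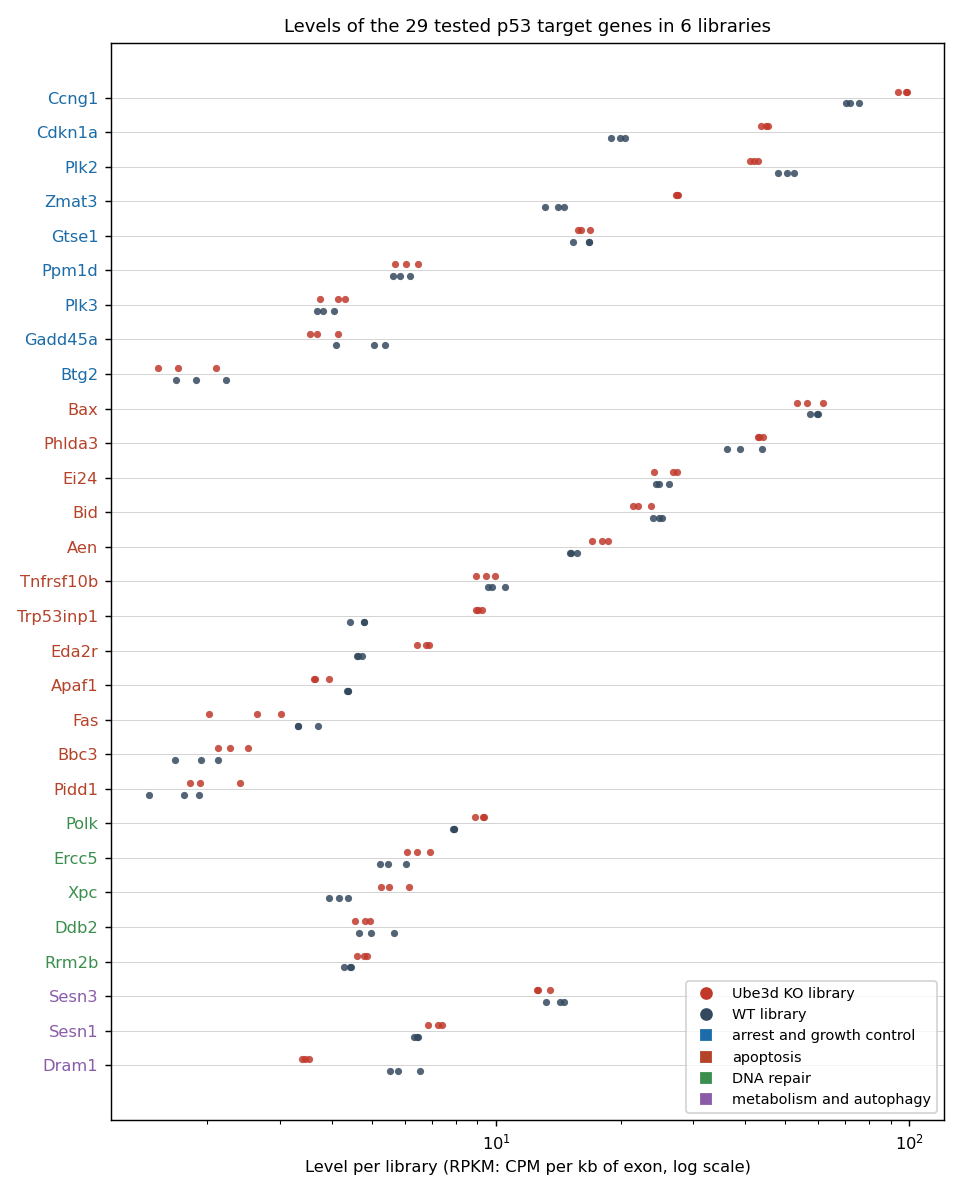
Level of each of the 29 tested p53 target genes in every library, as RPKM (CPM per kilobase of exon) on a log axis, with the 3 KO libraries drawn above the 3 WT libraries for each gene and names coloured by role. Cdkn1a, Zmat3, Trp53inp1 and Eda2r show KO points to the right of WT, Dram1 shows them to the left, and Bax, Gtse1 and Ppm1d overlap.

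Levels per length differed widely between the members. As RPKM, Ccng1 was the highest in both genotypes, at 96.7 ± 2.6 in KO and 72.6 ± 2.7 in WT, followed by Bax at 57.3 ± 4.2 in KO and 59.1 ± 1.4 in WT (SD, n = 3 each). Cdkn1a took rank 3 in KO, at 44.7 ± 0.9, and rank 7 in WT, at 19.8 ± 0.8 (SD, n = 3 each). Phlda3 and Plk2 followed Cdkn1a in KO at 43.5 ± 0.6 and 42.0 ± 0.9, and each of these 3 overlapped its neighbour in mean ± SD. Trp53inp1 took rank 14 in KO and rank 20 in WT, and Dram1 took rank 25 in KO and rank 15 in WT. At the low end of the tested members, Bbc3, Pidd1 and Btg2 had 2.30, 2.04 and 1.77 RPKM in KO. In the KO order, 15 of the 28 pairs of neighbours overlapped in their mean ± SD and so are not separated. The median level of the tested members was 7.14 RPKM in KO and 5.95 RPKM in WT, beside 8.73 and 8.74 RPKM for all tested genes.

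Libraries of 1 genotype were close for most members. The coefficient of variation over 3 libraries had a median of 4.50% in KO and 4.88% in WT. Fas varied most in KO, at 19.7%, and Btg2 in WT, at 14.1%, followed by Pidd1 at 13.9% and Gadd45a at 13.7%. These genes held 102 to 195 counts per library, against 969 to 2556 counts for Cdkn1a. All KO libraries were above all WT libraries for 12 of the 29 tested members and below for 5, beside 31.8% and 32.5% of all tested genes.

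**Figure D3:**
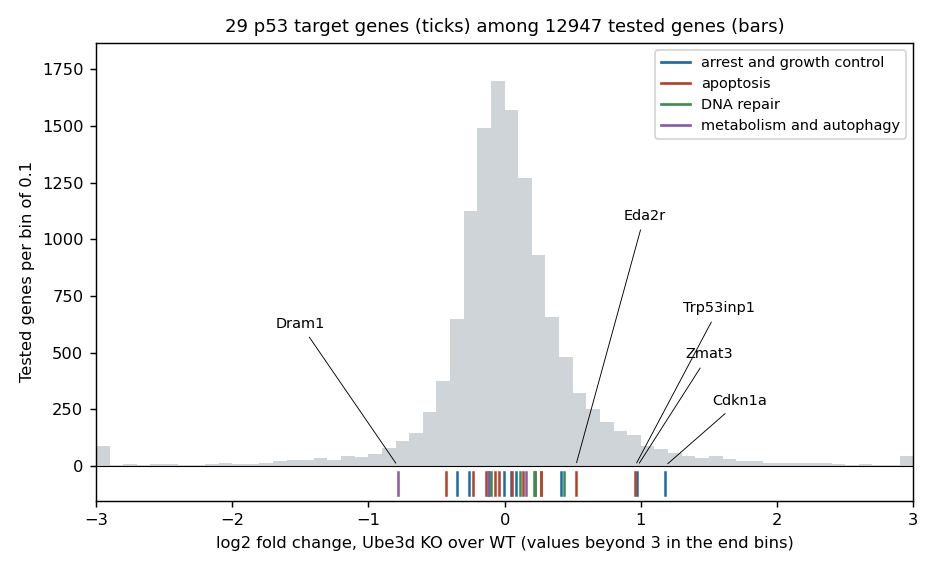
Number of tested genes per bin of log2 fold change, KO over WT (bars), with 1 tick under the axis for each of the 29 tested p53 target genes, coloured by role. Most ticks fall under the centre of the distribution, and Cdkn1a, Zmat3 and Trp53inp1 had higher values than 96.7%, 95.4% and 95.1% of all tested genes.

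Of 24 tested genes of a list of 26 regulators, 6 rose and 7 fell (54.2% called, beside 61.4% of all tested genes), with a median log2 change of −0.02. None of the 24 changes reached 0.5, while 18.9% of all tested genes were called with a change of at least that size. Trp53, the gene of p53 itself, had 159, 171 and 171 CPM in KO, against 188, 180 and 173 CPM in WT, and fell by 0.11 on the log2 scale (SE 0.03, edgeR adjusted p = 0.0030). Mdm2 had 1596 RPKM in KO and 1561 RPKM in WT, far above Ccng1, the highest of the 34. In CPM it averaged 4946 ± 24 in KO and 4839 ± 169 in WT (SD, n = 3 each) and was not called (log2 0.03, SE 0.03, edgeR adjusted p = 0.35). Slc35e3, the nearest upstream gene on the same strand, 22.9 kb from Mdm2, averaged 1843 CPM in WT and was lower in KO. What sets the level of Mdm2 was not tested. Of the other regulators, the kinase gene Atr, which signals replication stress, rose by 0.44 (SE 0.04), and Cdkn2a, whose ARF product inhibits MDM2, rose by 0.26 (SE 0.03). Counts are per gene, so the part of the ARF transcript in the Cdkn2a change is not known. Hipk2, a kinase that phosphorylates p53, fell by 0.41 (SE 0.05), and Trp53bp1, a DNA repair scaffold on chromosome 2, fell by 0.25 (SE 0.03), which is close to the median of −0.24 there. Exons of Atr overlap 1700065D16Rik and those of Trp53bp1 overlap Tubgcp4, each on the other strand.

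Other known p53 targets outside the 34 also went both ways. Of 38 tested genes of a list of 42, 21 rose and 10 fell (81.6% called, beside 61.4% of all tested genes), with a median log2 change of 0.13. This list was chosen with earlier results of these data known, so its share called is no independent result. At a change of at least 0.5, 10 rose and 1 fell, beside 11.2% and 7.71% of all tested genes. The 1 that fell was Tap1, a peptide transporter gene of antigen presentation, named after its values were seen (log2 −1.19, edgeR adjusted p = 3.2e-06). Sulf2, a heparan sulfatase gene, had 24.6, 20.8 and 23.1 CPM in KO, against 5.91, 4.92 and 5.87 CPM in WT, a 4.12-fold rise (SE 0.09 on the log2 scale) on chromosome 2. The receptor kinase gene Epha2 rose 1.68-fold (SE 0.04), the small GTPase gene Rap2b 1.64-fold (SE 0.04, on chromosome 3) and the kinase gene Dyrk3 2.82-fold (SE 0.12). Relative to the median of chromosome 3, 0.30, the log2 change of Rap2b was 0.42 instead of 0.72. Relative to the median of chromosome 2, −0.24, that of Sulf2 was 2.28 instead of 2.04. Trp53cor1, the noncoding RNA known as lincRNA-p21, was picked after its values were seen because it lies 11.9 kb from Cdkn1a, on the other strand. It had 2.12, 2.53 and 1.99 CPM in KO, against 0.942, 1.31 and 1.12 CPM in WT, and rose by 0.96 on the log2 scale (SE 0.22, edgeR adjusted p = 1.5e-04), beside the 1.18 of Cdkn1a.

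Members of the BCL2 family and caspases outside the 34 showed 3 of 21 tested genes higher and 7 lower, beside 30.3% higher and 31.2% lower of all tested genes, with a median log2 change of −0.10. Relative to the medians of their chromosomes, the median change of these genes was −0.009. The pore-forming effector gene Bak1 fell by 0.39 (SE 0.04) and the cytochrome c gene Cycs by 0.25 (SE 0.04), while the survival gene Mcl1, on chromosome 3, rose by 0.31 (SE 0.03), close to the median of 0.30 of that chromosome. Cell-cycle genes that p21 represses through the DREAM complex were lower in 17 of 18 cases, with Cenpf not called (log2 0.03), beside the 31.2% of all tested genes that were lower. Their median was −0.36, and −0.38 relative to the medians of their chromosomes. Both lists of this paragraph were chosen with earlier results of these data known, so their counts are no independent result. Bub1b, a spindle checkpoint kinase gene, fell by 0.67 (SE 0.03), the mitotic kinase gene Aurka by 0.77 (SE 0.04), the helicase gene Mcm5 by 0.44 (SE 0.03) and the cyclin gene Ccnb1 by 0.48 (SE 0.03). Bub1b and Aurka lie on chromosome 2, where the median was −0.24, and relative to it their changes were −0.43 and −0.53. E2f1, an S phase transcription factor gene on that chromosome, had −0.14 and, relative to the median, 0.10. The counts do not show p53 protein or its activity, and whether any of these changes goes through p53 was not tested.

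**Figure D4:**
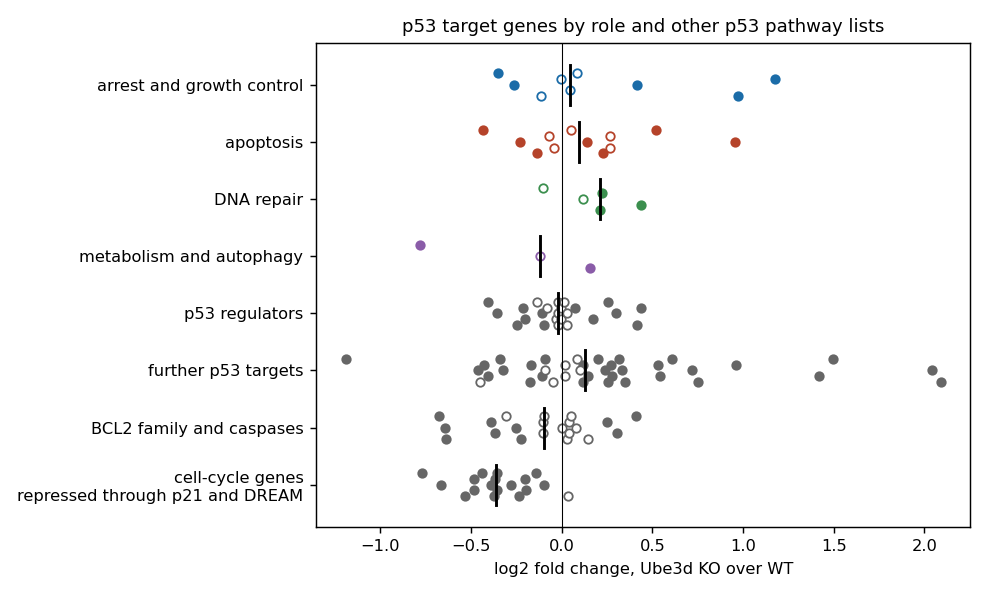
Log2 fold change, KO over WT, of each tested gene in the 4 roles of the p53 target set (coloured) and in 4 other lists of the p53 pathway (grey), with filled points for an adjusted p under 0.05, open points for genes not called and a black bar at the median of each list. The medians of the 4 roles run from −0.12 to 0.21, and the cell-cycle list has its median at −0.36.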

How the data were processed

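Raw read counts per gene were deposited by the authors for 6 stranded, ribosomal RNA-depleted libraries. STAR 2.6.1d, featureCounts 1.6.3 and the builds mm10 and GRCm38 are named in the submitters' processing notes. Which annotation and strand setting were used, and how multi-mapping reads were handled, was not found in the labels or headers. Deposited counts of downstream-of-gene regions carry no gene names and were not used. Groups and replicate numbers come from the sample titles.

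The test was edgeR's quasi-likelihood F test (version 4.0.16, R 4.3.3, robust fit, TMM scaling). Genes were filtered by filterByExpr at its minimum count of 10 and minimum total of 15. The same fit was also run on counts simulated from the means and dispersions of these data. P-values are two-sided and adjusted over all 12947 tested genes, with calls under 0.05. Each SE was taken from the fold change (log2, absolute) over the square root of the F statistic. RPKM is CPM per kilobase of the exon length in the count table. Within-genotype pairs of libraries differed by more than sampling noise (chi-square per gene 2.05 to 6.50), so none was counted as a duplicate. The ribosomal precursor gene Rn45s took 9.99% ± 0.28 of counts in KO and 7.99% ± 0.83 in WT (SD, n = 3 each). Promoter windows are RefSeq sequence on GRCm38.p6. Tables and plots were made with pandas 2.3.3, matplotlib 3.10.9 and NumPy 2.4.6 in Python 3.11.15.

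The members, lists and roles were chosen with earlier results of these data known. Values per library are given for members called with a log2 change of at least 0.5 in either direction and for the smallest adjusted p of each role. Up to 4 genes per other list are named by smallest adjusted p, with Trp53 and Mdm2 always. A gene that this rule names is not reported here. Alternatives were RLE size factors, Rn45s left out, no count filter, DESeq2 1.42.0, a filter at 1 CPM in 3 libraries, voom in limma 3.58.1, the replicate number as a block, each library left out, and values relative to the median of the chromosome.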

Additional observations from a re-analysis of the deposited data

How the results depend on the processing

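Under the 13 alternative fits the number of members higher in KO was 9 to 13 with a library left out and 10 or 11 otherwise, and the number lower was 4 to 7 with a library left out and 6 otherwise. Over all genes, leaving out a library gave 3580 to 3746 genes higher and 3789 to 3940 lower. The median log2 change of the tested members was 0.08, and was 0.11 with no count filter, where 32 members were tested, 0.069 to 0.12 with a library left out, and 0.13 relative to the median of each member's chromosome. Cdkn1a, Zmat3, Trp53inp1, Ccng1, Eda2r, Xpc, Aen, Polk, Plk2, Apaf1 and Dram1 were called in the same direction in every alternative fit. Among the fits, signs turned for Gtse1, Bax and Ppm1d, which none of them called. Gtse1 (−0.0052) had 0.0012 without Rn45s, 0.0026 with a filter at 1 CPM and −0.050 to 0.016 with a library left out. With a library left out, Bax ran from −0.11 to 0.0023 and Ppm1d from −0.0056 to 0.090. Relative to the chromosome median, Gtse1, Tnfrsf10b and Ddb2 had 0.01, 0.04 and 0.14. Pidd1 and Sesn3 passed the test without KO replicate 1 (adjusted p = 0.033 and 0.037) and without WT replicate 2 (adjusted p = 0.028 and 0.023). The cause of these shifts was not tested. With the replicate number as a block, 11 members were higher and 6 lower, the same genes as without it, and the median was 0.083. Same-numbered libraries did not deviate together (correlations −0.03 for each number), and 0 of 6 libraries correlated best with their own number, so the numbers are not taken as pairs. Sfn, Rprm, Casp1, Pmaip1 and Perp had too few counts for a test over all 6 libraries.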
